A study of Mus musculus with 18 samples.

Results

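The response described here is that of STAT5 tetramer-deficient mouse monocytes to granulocyte-macrophage colony-stimulating factor (GM-CSF), measured by RNA-seq as the change from day 0 to day 3. Members were the 9922 of 20298 genes with a mean above 2 RPKM (reads per kilobase of gene, scaled to the reads mapped in the library) in the day 0 or the day 3 libraries of DKI mice, the strain that cannot form STAT5 tetramers. Of these, 8575 passed the limit on both days, 541 on day 0 only and 806 on day 3 only. Means just inside the limit were 2.001 RPKM for Chdh and 2.003 RPKM for Msi2, both on day 0, and means just outside it were 1.999 RPKM for Btbd19 and 1.997 RPKM for Engase, both on day 3.

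The series holds 18 libraries in 6 groups of 3, from WT and DKI mice of the C57BL/6 strain on days 0, 3 and 6. Cells labelled Ly6C+ CCR2+ monocytes were enriched from bone marrow by negative selection. Day 0 libraries came from untreated cells and day 3 libraries from cells kept with 20 ng/mL GM-CSF, so the DKI comparison sets 3 libraries against 3, and the WT libraries of the same days, 3 and 3, are given beside it. Liver is the tissue given in the sample labels, but bone marrow is the one given in the series design and the study's methods. DKI mice carry knocked-in changes in both *Stat5a* and *Stat5b* in every cell, and mouse age and pooling of animals were not given in the sources used here. No day 3 culture without GM-CSF was analysed here, so GM-CSF, time in culture and adherence to the plate cannot be told apart.

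GM-CSF binds a receptor with a specific alpha chain and a shared beta chain, which activates the kinase JAK2 and, through it, the transcription factors STAT5A and STAT5B. Phosphorylated STAT5 binds DNA as dimers at TTCNNNGAA motifs, and a pair of dimers on neighbouring motifs can join through their N-terminal domains into a tetramer. DKI proteins still form dimers. In bone marrow cultures, GM-CSF is best known for driving monocytes towards dendritic cells and macrophages.

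Sites that match the STAT5 motif are shown first because they bear on the direct target genes described below. RefSeq promoter windows of the GRCm38.p6 build, 300 bases around each annotated start, were matched to 17 of the 22 STAT5 target and feedback genes in the table (not *Socs2*, *Osm*, *Ccnd1*, *Ccnd2* and *Myc*), and 4 of the 17 held TTCNNNGAA, which reads the same on both strands. Over all genes with a window, 9.55% held it. Windows with 2 or more motifs made up 0.457% of the 32851 windows, and among the list they were those of *Cish* and *Bcl6*. The matches follow 5′ to 3′ with the motif in capitals and a few bases around it, at chr9:107296654-107296683, plus strand for *Cish*, chr11:117969507-117969525, minus strand for *Socs3*, chr16:23988957-23988975, minus strand for the first *Bcl6* start, chr16:23981438-23981456, minus strand, chr16:23981392-23981410, minus strand and chr16:23981358-23981376, minus strand for the second *Bcl6* start, and chr4:150927858-150927876, plus strand for *Tnfrsf9*.
Cish: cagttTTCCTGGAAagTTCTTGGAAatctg
Socs3: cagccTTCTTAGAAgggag
Bcl6 first start: attagTTCTCAGAAttcca
Bcl6 second start, site 1: gcggcTTCCTGGAAagtta
Bcl6 second start, site 2: gagtgTTCTGTGAAatcct
Bcl6 second start, site 3: ctacgTTCCGGGAAtgaga
Tnfrsf9: gctgaTTCCAAGAAaccct
In *Cish* the motifs lay 2 bases apart. A match is a description of these letters and was not tested for binding.

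Before the results, the libraries were compared. Estimated depth was between 29.5 M and 43.2 M reads on genes per library, so that 3 reads in the shallowest library, for a gene 1 kb long, are worth 0.102 RPKM, a floor for counting error only. DKI day 0 libraries correlated with each other at 0.938 to 0.956 over the members on the log2 scale, and with day 3 libraries at 0.682 to 0.764. Day 3 replicate 1 stood apart: it correlated with the other day 3 libraries at 0.892 and 0.895, which correlated with each other at 0.962. Its library name, like that of WT day 3 replicate 1, carries an earlier year than the other day 0 and day 3 libraries, so values of the DKI change without it are also values within the later year, while differences from WT without it still hold the earlier WT library. Libraries of a group differed by far more than counting noise, so none was treated as a repeat deposit of another. Markers of the labelled cell type were present on day 0, with *Ly6c2* at 1104, 1579 and 1411 RPKM, *Ccr2* at 172, 339 and 584 RPKM and *Csf1r* at 235, 308 and 243 RPKM. The level of *Stat5a* or *Stat5b* RNA does not check the genotype, since the DKI changes leave both genes transcribed.

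Between day 0 and day 3, the largest rises in DKI monocytes were those of *Mmp12*, the C1q genes and chemokine genes such as *Ccl7*, and the largest falls those of *Nr4a1*, *Fosb*, *Plac8* and immunoglobulin genes. Among the 9922 members, 1297 rose (13.1%) and 2097 fell (21.1%) at a Benjamini-Hochberg adjusted p under 0.05 in limma and a fold above 1.5, 34.2% in all. The 3 libraries of a day did not overlap those of the other day for 55.2% of the members. The median log2 fold change over all members was -0.16, so a gene at 0 stood slightly above the middle. With each library centred on its median, 1743 rose and 1622 fell, which moved the share of rises among the calls from 38.2% to 51.8%. Without day 3 replicate 1, 1497 rose and 1915 fell. The fit with all libraries and the one without that library shared 1180 of the rises and 1777 of the falls. Without day 0 replicate 2 the calls dropped to 750 rises and 1226 falls.

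The largest rises, among calls in the same direction in every same-numbered pair, were led by *Mmp12*, the macrophage elastase (chr9:7344397-7360461 in the RefSeq annotation of GRCm38.p6). It went from 2.41, 0.154 and 1.36 RPKM in the day 0 libraries to 463, 5498 and 2169.8 RPKM in the day 3 libraries (log2 fold change 9.72 ± 0.89 (SE), adjusted p = 0.0013). All 3 subunits of the complement component C1q followed. *C1qa* went from 0.238, 0.150 and 0.156 RPKM to 1768, 176 and 434 RPKM (8.77 ± 0.76, adjusted p = 0.0010), with day 3 replicate 1 the highest and a log2 fold change of 7.88 without it, and *C1qb* and *C1qc* had log2 fold changes of 7.98 and 8.96. The monocyte-attracting chemokines *Ccl7*, *Ccl12* and *Ccl8* were also among the largest rises. *Ccl7* went from 5.17, 0.607 and 7.78 RPKM to 1023, 677 and 182 RPKM (6.83 ± 0.83, adjusted p = 0.0028) and *Ccl12* from 0, 0.0865 and 0.189 RPKM to 519.7, 126 and 59.4 RPKM (7.19 ± 0.72, adjusted p = 0.0017). *Ccl8* had no read in any day 0 library and stood at 4156, 189 and 8.10 RPKM on day 3, at least 8959-fold higher against 3 reads in each day 0 library. That level was set by day 3 replicate 1, without which the bound was 607-fold, and the call was lost when any day 0 library or day 3 replicate 2 was left out (adjusted p up to 0.077). On recovered whole reads, voom did not call *Ccl8* or *Ccl12* (adjusted p = 0.47 and 0.087). *Anpep*, the aminopeptidase CD13, had among the smallest spreads of these genes, at 1.16, 0.366 and 0.485 RPKM and then 195, 272 and 267 RPKM (7.22 ± 0.24, adjusted p = 1.8e-04). *Gpnmb*, a lysosomal membrane glycoprotein of macrophages, went from 170.1, 6.23 and 2.06 RPKM to 1694, 3138 and 1771 RPKM, and its day 0 replicate 1 stood well above the other day 0 libraries. Among these genes, *Mmp12*, *C1qa*, *Ccl12*, *Ccl8* and *Anpep* passed the limit of 2 RPKM through day 3 only, which favours a rise. Over all 806 such members, 484 rose and 0 fell.

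The largest fall was that of *Nr4a1*, an early-response nuclear receptor of monocytes (chr15:101253902-101274795), from 167, 385 and 657 RPKM to 2.01, 0.728 and 0.830 RPKM (log2 fold change -7.36 ± 0.50 (SE), adjusted p = 5.8e-04). *Fosb*, another early-response gene, went from 11.4, 38.1 and 241 RPKM to 0.626, 0.0269 and 0.119 RPKM (-5.31 ± 0.99, adjusted p = 0.0093), a call that voom did not make (adjusted p = 0.075). *Nr4a1* and *Fosb* passed the limit of 2 RPKM through day 0 only, which favours a fall. Over all 541 such members, 364 fell and 0 rose. *Plac8* fell from 1287, 1659 and 1696 RPKM to 222, 23.1 and 4.01 RPKM (-5.68 ± 1.24, adjusted p = 0.015), and its call was lost without day 0 replicate 2 (adjusted p = 0.053). The other 7 were immunoglobulin genes and *Jchain*, the joining chain of secreted antibody, which are transcribed in plasma cells and not in monocytes. *Jchain* went from 79.3, 253 and 62.7 RPKM to 4.20, 1.5 and 1.31 RPKM (-5.13 ± 0.57, adjusted p = 0.0021) and *Igkc* from 1166, 3703 and 799 RPKM to 108, 34.9 and 19.8 RPKM. The call of *Igkv12-89* was lost without day 3 replicate 2 (adjusted p = 0.055), and voom did not call it or *Ighj1* (adjusted p = 0.33 and 0.065). Immunoglobulin segments, counted after these values were seen, made up 169 of the members: 134 fell and 0 rose, their summed level being 4499 to 18849 RPKM on day 0 and 143 to 582 RPKM on day 3. Since segments of one family are near copies, their single values are uncertain. In such bulk samples, fewer cells of a type and less RNA per cell cannot be told apart.

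**Figure D1:**
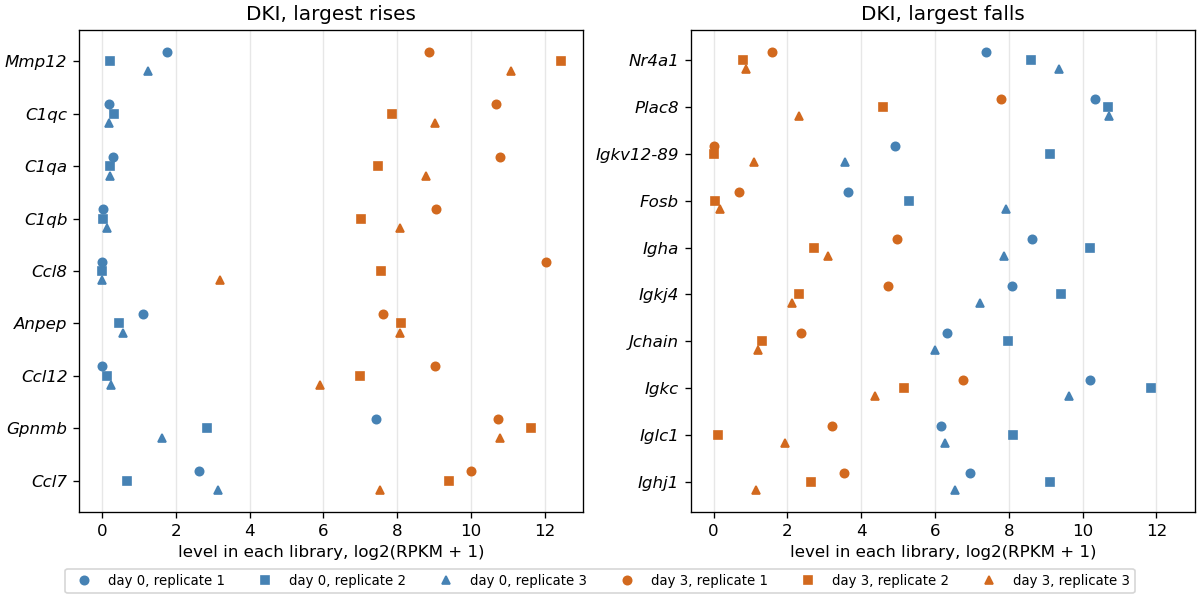
Level of the genes with the largest rises (left) and falls (right) in each DKI library, as log2(RPKM + 1) on the horizontal axis, with day 0 in blue, day 3 in orange and 1 symbol per replicate. The days did not overlap for any of these genes, which were chosen as the largest called changes, nor for 55.2% of all members. *Ccl8* and *Mmp12* spread widely among the day 3 libraries.

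Direct STAT5 target and feedback genes rose in part in DKI cells. Of the 22 members of that list, 10 rose, 4 fell and 8 were not called, with a median log2 fold change of 0.43 against -0.16 over all members. Of the 15 that passed the limit on both days, 4 rose and 3 fell. Their median was -0.71, against -0.19 over all members that passed on both days. *Cish*, the feedback inhibitor with the paired motif shown above, stood at 1.55, 3.78 and 0.376 RPKM before culture and at 28.3, 35.2 and 51.0 RPKM after it (3.89 ± 0.46, adjusted p = 0.0026). *Socs2*, a further inhibitor of cytokine receptors (chr10:95383903-95417321), rose from 0.153, 0.180 and 0.125 RPKM to 6.11, 3.61 and 4.84 RPKM (2.32 ± 0.24, adjusted p = 0.0018). *Socs1* showed the largest rise of the list, from 1.37, 0.874 and 1.08 RPKM to 62.4, 29.3 and 26.5 RPKM (4.16 ± 0.33, adjusted p = 8.7e-04). The 3 inhibitors did not overlap between days, as was the case for 55.2% of all members. All 3 passed the limit of 2 RPKM through day 3 only, which favours such a separation. *Bcl2l1*, which encodes the survival protein BCL-XL, rose from 7.89, 8.16 and 10.5 RPKM to 44.0, 57.0 and 34.6 RPKM (2.21 ± 0.23, adjusted p = 0.0018). *Il2ra*, the alpha chain of the interleukin-2 receptor, stayed low, at 0.0349, 0.0366 and 0.0612 RPKM and then 1.82, 1.30 and 7.04 RPKM (1.84 ± 0.48, adjusted p = 0.027). *Tnfrsf9*, the costimulatory receptor 4-1BB, stood at 0.0579, 0.146 and 0.107 RPKM before culture and at 16.9, 4.55 and 1.04 RPKM after it, highest in replicate 1 (2.41 ± 0.73, adjusted p = 0.042; 1.61 with adjusted p = 0.037 without it). *Bcl6*, a transcriptional repressor that holds motifs at both starts, fell from 70.5, 64.0 and 50.3 RPKM to 7.01, 5.76 and 6.32 RPKM (-3.08 ± 0.18, adjusted p = 5.4e-04). *Lif*, a cytokine, fell from 1.63, 1.21 and 5.18 RPKM to 0.157, 0.0629 and 0.119 RPKM (-1.57 ± 0.41, adjusted p = 0.028). *Pim1*, a survival kinase, stood at 317, 177 and 301 RPKM and then 209, 70.5 and 129.6 RPKM and was not called (-1.04 ± 0.43, adjusted p = 0.10), but it passed without day 3 replicate 1 (-1.41 with adjusted p = 0.033). Of the list, 6 genes passed the limit through day 3 only, which favours a rise, and all 6 rose. The 1 gene that passed through day 0 only fell. Without day 0 replicate 2, only 6 of the list rose, and the number that fell varied between 1 (without day 3 replicate 2) and 7 (without day 3 replicate 1) when single libraries were left out. *Il2ra* lost its call without any one of the day 0 libraries (adjusted p up to 0.076) or with voom (0.051), *Tnfrsf9* without any one of them or day 3 replicate 2 (up to 0.10), and *Lif* without day 0 replicate 1 or day 3 replicates 2 or 3 (up to 0.066).

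Of the receptor genes for GM-CSF, the beta chain gene rose and the alpha chain gene was not called. *Csf2rb*, the signalling beta chain, rose from 157, 146 and 82.8 RPKM to 271, 568 and 487 RPKM (1.76 ± 0.37, adjusted p = 0.014). *Csf2rb2*, a near copy of it that serves interleukin-3, rose from 40.6, 28.9 and 19.3 RPKM to 211, 198 and 245 RPKM (2.90 ± 0.28, adjusted p = 0.0015), and reads can be split uncertainly between them. *Csf2ra*, the alpha chain that gives GM-CSF specificity, stood at 142, 159 and 159 RPKM and then 70.7, 161 and 153 RPKM, with only day 3 replicate 1 below the day 0 range (-0.34 ± 0.33, adjusted p = 0.44; 0.04 with adjusted p = 0.85 without it). *Jak2* was not called either, at 62.1, 54.2 and 35.4 RPKM and then 62.5, 65.3 and 82.4 RPKM (0.49 ± 0.25, adjusted p = 0.17). *Stat5a* stood at 12.1, 13 and 16.1 RPKM and then 9.37, 13.4 and 14.4 RPKM, with overlapping days (-0.15 ± 0.21, adjusted p = 0.60), while *Stat5b* fell from 24.3, 27.3 and 36.3 RPKM to 14.8, 12.6 and 16.5 RPKM (-0.94 ± 0.20, adjusted p = 0.015). *Flt3*, a receptor of dendritic cell precursors, fell from 7.31, 5.47 and 4.78 RPKM to 0.681, 1.15 and 0.588 RPKM (-1.92 ± 0.23, adjusted p = 0.0028), and *Lyn*, a Src-family kinase, had a log2 fold change of -1.53 ± 0.23, adjusted p = 0.0052. In all, 19 members of this list of 21 signalling and receptor genes were fitted, of which 3 rose and 5 fell, against 13.1% and 21.1% of all members. Leaving out single libraries gave between 3 (day 0 replicate 1 or day 3 replicate 3) and 8 falls (day 3 replicate 1).

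Macrophage genes formed the group with the most rises. Of 37 fitted members of that list, 31 rose, 0 fell and 6 were not called, with a median log2 fold change of 3.81 (3.81 also with *Marco*, which had no read on day 0, set to its lower bound), and without day 3 replicate 1 the count was 32 of 36. Of the 37, 12 passed the limit of 2 RPKM through day 3 only, which favours a rise, and 10 of these rose. Of the other 25, which passed on both days, 21 rose and 0 fell, against 813 rises and 1733 falls among all 8575 such members. Over all members, 806 passed through day 3 only, of which 484 rose and 0 fell, and 541 through day 0 only, of which 364 fell and 0 rose. A further 2 list genes, *Timd4* and *Cd5l*, were below the limit on expression. Summed RPKM of the list was 4206, 2639.8 and 1753 on day 0 and 25448, 23435 and 16796 on day 3. *Adgre1*, which encodes F4/80, rose evenly, from 87.7, 71.1 and 54.2 RPKM to 438, 369 and 417 RPKM (2.53 ± 0.23, adjusted p = 0.0012). *Mertk*, a receptor for the uptake of dying cells, rose from 0.0434, 0.137 and 0.124 RPKM to 64.2, 22.3 and 21.7 RPKM (4.88 ± 0.42, adjusted p = 9.8e-04). *Mrc1*, the mannose receptor CD206, rose from 1.35, 3.79 and 3.39 RPKM to 417, 345 and 276 RPKM (6.54 ± 0.31, adjusted p = 3.3e-04). *Stab1*, a scavenger receptor, rose from 0.775, 0.168 and 0.263 RPKM to 182, 95.1 and 77.1 RPKM (6.33 ± 0.35, adjusted p = 4.3e-04). *Pf4*, a chemokine shared with platelets, also rose while the platelet markers given below fell. In *Adgre1*, *Mertk*, *Mrc1* and *Stab1* the days did not overlap, as was the case for 55.2% of all members. Every day 3 library was several times the highest day 0 library in these genes. *Mertk* and *Stab1* passed the limit of 2 RPKM through day 3 only, which favours such a separation. *Apoe*, the lipid carrier apolipoprotein E, rose from 92.6, 126 and 115 RPKM to 7177, 440.5 and 1205 RPKM (3.81 ± 0.93, adjusted p = 0.022), a level that day 3 replicate 1 set. Without it the log2 fold change was 2.71 with adjusted p = 0.0081. *Csf1r*, the receptor for macrophage colony-stimulating factor, rose from 235, 308 and 243 RPKM to 905, 461 and 585 RPKM (1.26 ± 0.30, adjusted p = 0.019). *Fcgr4*, an Fc receptor for IgG, went from 2.92, 3.86 and 6.69 RPKM to 394, 13.4 and 48.5 RPKM (3.64 ± 1.11, adjusted p = 0.043). Without any one of the day 0 libraries *Apoe* lost its call (adjusted p up to 0.067) and so did *Fcgr4*, as also without day 3 replicate 3 (up to 0.12), while *Csf1r* lost it without day 0 replicates 1 or 3 (up to 0.065).

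Chemokines and cytokines were mixed: of 27 fitted members, 8 rose, 2 fell and 17 were not called, and 7 fell without day 3 replicate 1 but 1 without any one of the other libraries. Beside *Ccl7*, *Ccl12* and *Ccl8*, *Ccl2*, the main ligand of CCR2, rose from 94.1, 62.0 and 263 RPKM to 1095, 1706 and 529 RPKM (3.10 ± 0.63, adjusted p = 0.012). The inflammatory cytokines *Tnf* and *Il1b* fell. *Tnf* went from 199, 76.9 and 257 RPKM to 15.2, 25.2 and 13.4 RPKM (-3.12 ± 0.48, adjusted p = 0.0053) and *Il1b* from 172, 221 and 310.5 RPKM to 116, 20.8 and 31.4 RPKM (-2.39 ± 0.61, adjusted p = 0.025). The call of *Il1b* was lost when any library other than day 3 replicate 1 was left out (adjusted p up to 0.080).

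Most genes of MHC class II presentation rose. Of 15 fitted members of the MHC class II list, 11 rose, 0 fell and 4 were not called, with a median log2 fold change of 2.59. *H2-Aa*, the alpha chain of I-A, rose from 12.1, 32.4 and 29.96 RPKM to 602, 2206 and 2875 RPKM (6.04 ± 0.65, adjusted p = 0.0019). *H2-Ab1*, its beta chain, rose from 9.32, 23.2 and 20.7 RPKM to 613, 1952 and 1976 RPKM (6.25 ± 0.55, adjusted p = 0.0011). *H2-Eb1* had the largest change of the list (6.69 ± 0.50, adjusted p = 7.8e-04), and *Cd74*, the invariant chain, rose from 45.9, 121 and 99.2 RPKM to 2139, 5073 and 6502 RPKM (5.64 ± 0.53, adjusted p = 0.0014). Day 3 replicate 1 was the lowest of the day 3 libraries in each of these genes, and without it *H2-Aa* changed by 6.72 on the log2 scale. Dendritic cell genes moved less uniformly: of 27 fitted members, 9 rose, 3 fell and 15 were not called (11 and 4 without day 3 replicate 1, and 5 falls without day 0 replicate 3), and 7 of the 34 were below the limit on both days. Of the members that passed through day 3 only, 3 of 3 class II genes and 5 of 8 dendritic cell genes rose. *Itgax*, which encodes CD11c, rose from 0.658, 1.13 and 0.648 RPKM to 29.98, 321 and 191 RPKM (6.11 ± 0.81, adjusted p = 0.0035). *Mgl2*, a C-type lectin, rose from 1.58, 3.60 and 4.72 RPKM to 162, 319 and 652 RPKM (6.31 ± 0.54, adjusted p = 9.8e-04). The chemokines *Ccl17* and *Ccl22*, ligands of CCR4, also rose, *Ccl17* from 0, 0 and 1.98 RPKM to 12.5, 42.2 and 68.0 RPKM (4.57 ± 0.69, adjusted p = 0.0052; 0.067 with voom) and *Ccl22* from 0.114, 0.192 and 0.187 RPKM to 50.9, 58.7 and 19.2 RPKM (5.09 ± 0.41, adjusted p = 8.7e-04). *Ccr7*, the lymph node homing receptor, stood at 0.469, 0.282 and 0.309 RPKM and then 16.9, 4.36 and 0.601 RPKM and was not called (1.99 ± 0.80, adjusted p = 0.095; 1.12 with adjusted p = 0.14 without day 3 replicate 1), but passed without day 3 replicate 3 (2.86 with adjusted p = 0.017) and in the fit of all 18 libraries (adjusted p = 0.033). The lectin *Cd209a* was not called either (-0.31 ± 0.71, adjusted p = 0.75). *Cd83*, a maturation marker, fell from 127, 65.9 and 56.4 RPKM to 8.50, 4.52 and 5.55 RPKM (-3.50 ± 0.35, adjusted p = 0.0018), and the nuclear receptor *Nr4a3* fell from 18.5, 18 and 14.9 RPKM to 5.66, 2.79 and 0.988 RPKM (-2.29 ± 0.42, adjusted p = 0.0089).

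**Figure D2:**
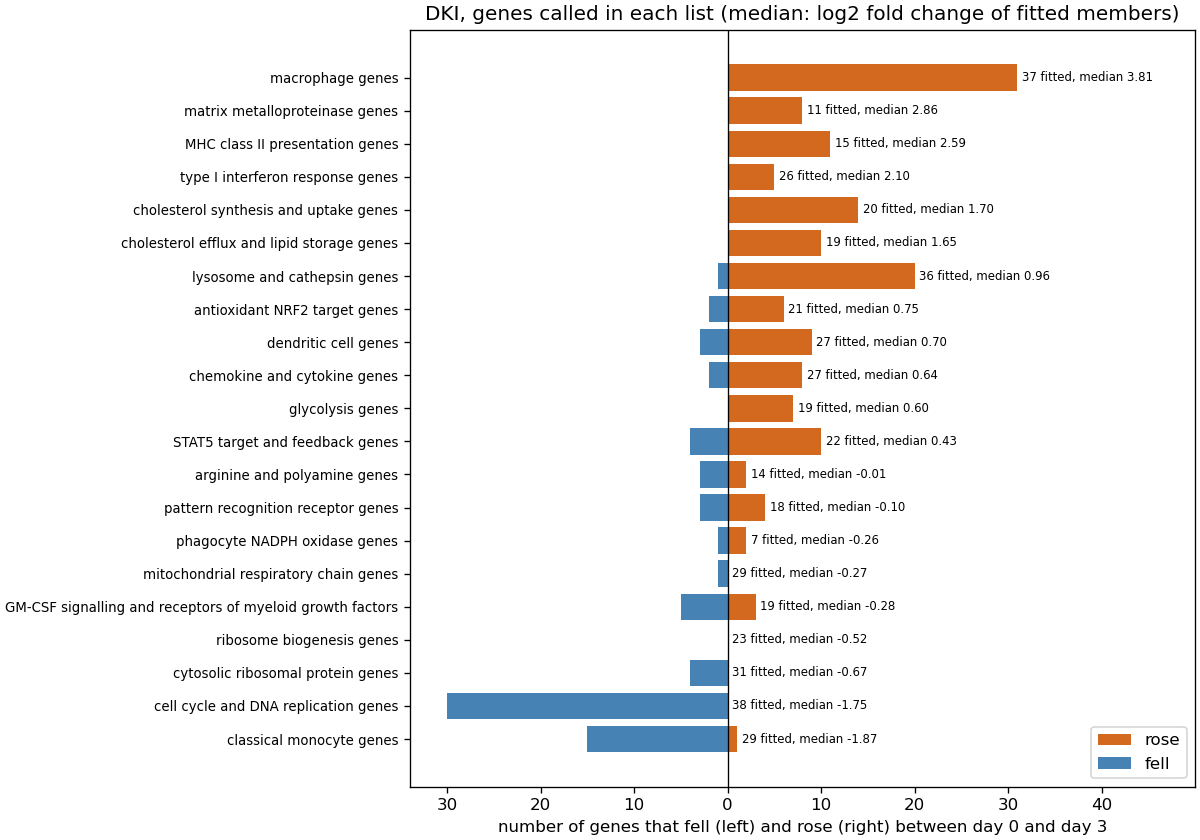
Number of genes of each list that rose (orange, right) or fell (blue, left) in DKI cells between day 0 and day 3, with the number fitted and their median log2 fold change beside each bar. Macrophage genes had 31 rises of 37 and cell cycle genes 30 falls of 38, against 13.1% and 21.1% of all members.

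Classical monocyte genes fell in part. Of 29 fitted members, 15 fell, 1 rose and 13 were not called, with a median log2 fold change of -1.87. *Ly6c2*, which encodes the antigen used to define these cells, went from 1104, 1579 and 1411 RPKM to 775, 49.5 and 73.8 RPKM (-3.24 ± 0.97, adjusted p = 0.042), with day 3 replicate 1 an order of magnitude above the others; without it the log2 fold change was -4.46 with adjusted p = 8.6e-04. *Cd177* fell from 85.1, 101 and 84.5 RPKM to 15, 25.7 and 4.64 RPKM (-2.76 ± 0.53, adjusted p = 0.010), and *Cd14*, the coreceptor for lipopolysaccharide, from 885, 647 and 429.6 RPKM to 176, 69.4 and 78.5 RPKM (-2.65 ± 0.43, adjusted p = 0.0063). *Ccr2*, the other labelled marker, ranged widely, at 172, 339 and 584 RPKM and then 32.5, 106 and 395 RPKM, and was not called (-1.53 ± 0.90, adjusted p = 0.22). It passed with the replicate block (adjusted p = 0.046) and without day 3 replicate 3 (-2.44 with adjusted p = 0.046). *Itgam*, which encodes CD11b, was the member that rose, from 179, 187 and 189 RPKM to 526, 778 and 855 RPKM (1.93 ± 0.24, adjusted p = 0.0030). *Ly6c2* lost its call without any library other than day 3 replicate 1 (adjusted p up to 0.11).

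Markers of other marrow cells moved with these falls. All 5 fitted platelet markers fell, their list summing to 27.1, 52.0 and 59.3 RPKM on day 0 and 0.707, 1.56 and 1.52 RPKM on day 3. Plasma cell markers summed to 104, 289 and 81.8 RPKM and then 18, 14.5 and 17.7 RPKM, with 3 of 4 fitted genes falling. Eosinophil markers summed to 132, 347 and 136 RPKM and then 28.7, 35.2 and 15.8 RPKM (3 of 4 fell and *Siglecf* rose), and stromal and endothelial markers to 49.3, 151 and 63.5 RPKM and then 16.9, 4.05 and 8.18 RPKM (3 of 4 fell). Day 0 replicate 2 was the highest of the day 0 libraries in plasma cell, eosinophil and stromal markers. Without it, 1 of the plasma cell and 1 of the eosinophil markers fell. The rise of *Siglecf* was kept without day 3 replicate 1 and lost without any other library. Of 16 neutrophil and promyelocyte markers 5 fell and 2 rose, the list summing to 5734, 3412 and 3031 RPKM and then 2356, 3866 and 1722 RPKM. B cell markers summed to 178 to 281 RPKM on day 0 and 25.2 to 52.4 RPKM on day 3, with *Igll1* and *Rag1* at 0 on day 3, while *Blnk* rose and 1 of the other 2 fitted members fell. Basophil and mast cell markers summed to 26.7 to 60.7 RPKM and then 13.4 to 31.1 RPKM, with 2 of 4 fitted members falling and *Gata2* rising, a rise lost without any one of the day 0 libraries or day 3 replicate 2. Progenitor markers summed to 9.06 to 18.4 RPKM and then 3.25 to 12.9 RPKM, and plasmacytoid dendritic cell markers to 55.8 to 66.5 RPKM and then 30.3 to 68.4 RPKM. Erythroid markers summed to at most 26.3 RPKM on day 0 and 0.0994 RPKM on day 3, with *Hba-a1*, *Hbb-bs* and *Car1* at 0 on day 3. NK cell markers stayed at or below 4.19 RPKM in every library, and T cell markers at or below 3.31 RPKM apart from day 3 replicate 1 (53.4 RPKM, nearly all of it *Cd4*, which myeloid cells can also express). The part of these other cells in the falls of the monocyte and immunoglobulin genes was not tested.

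**Figure D3:**
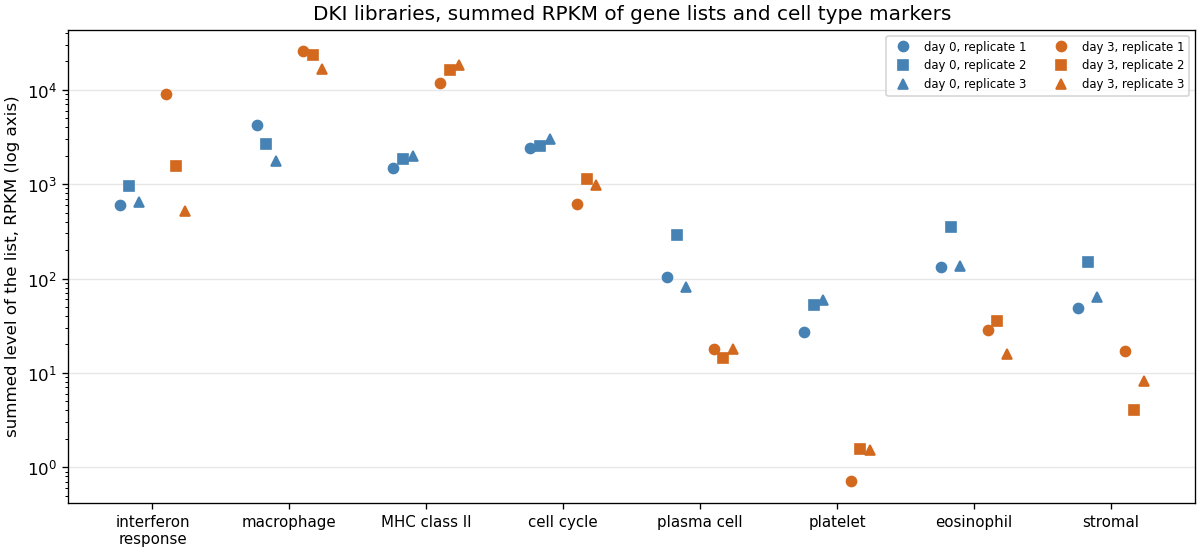
Summed RPKM of 4 gene lists and 4 lists of cell type markers in each DKI library, on a log axis, with day 0 in blue, day 3 in orange and 1 symbol per replicate. Platelet markers drop from 27.1 RPKM or more to 1.56 RPKM or less, and the interferon response list spreads from 519 to 8952 RPKM among the day 3 libraries.

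Lysosome genes rose in part, cathepsins among them. Of 36 fitted lysosome and cathepsin genes, 20 rose, 1 fell and 15 were not called, with a median log2 fold change of 0.96; without day 0 replicate 2, 13 rose. *Ctsd* rose from 304, 205 and 239.7 RPKM to 3358, 1929 and 3539.6 RPKM (3.52 ± 0.32, adjusted p = 0.0012), *Ctsl* from 198, 104 and 83.0 RPKM to 1419, 1656 and 1167 RPKM (3.54 ± 0.36, adjusted p = 0.0017) and *Ctsb* from 463, 309 and 286 RPKM to 3145, 1466 and 1429 RPKM (2.44 ± 0.39, adjusted p = 0.0059). These encode cathepsins D, L and B. The largest change of the list was that of *Atp6v0d2*, a subunit of the proton pump of macrophages and osteoclasts, from 1.05, 0.435 and 1.15 RPKM to 75.7, 243 and 167 RPKM (6.31 ± 0.43, adjusted p = 5.8e-04). *Tfeb*, a transcription factor for lysosomal genes, was the gene that fell, by little (-0.72 ± 0.21, adjusted p = 0.036), and its call was lost without any library other than day 3 replicate 3 (adjusted p up to 0.10), in 1 case because the fold was then under 1.5. Matrix metalloproteinase genes also rose, 8 of 11 fitted with 0 falls, a list that also holds *Timp2*, an inhibitor, and *Adam8*, a related protease, both among the 8. Of the 11, 3 passed the limit on expression through day 3 only, of which 2 rose. Among the 8 that passed on both days, 6 rose. *Mmp14*, a membrane-anchored protease, rose from 4.72, 1.53 and 1.13 RPKM to 513, 205 and 170.4 RPKM (6.39 ± 0.53, adjusted p = 9.2e-04). *Mmp8* rose from 137, 69.7 and 98.9 RPKM to 372, 901 and 1113 RPKM (2.86 ± 0.46, adjusted p = 0.0062), and *Mmp13* varied most, from 18, 2.11 and 1.53 RPKM to 309.8, 1377 and 52.1 RPKM (5.74 ± 1.27, adjusted p = 0.016), its call being lost without day 0 replicates 2 or 3 (adjusted p up to 0.059).

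Genes of cholesterol synthesis and uptake rose, 14 of 20 fitted with 0 falls and a median log2 fold change of 1.70, and 19 of 21 without day 3 replicate 1. *Hmgcs1*, an early enzyme of the pathway, rose from 26.8, 19.0 and 20.8 RPKM to 50.8, 127 and 128 RPKM (2.05 ± 0.38, adjusted p = 0.0094), and *Sqle*, squalene epoxidase, from 10.2, 8.21 and 6.97 RPKM to 21.2, 80.2 and 77.6 RPKM (2.48 ± 0.51, adjusted p = 0.013). Day 3 replicate 1 was the lowest day 3 library in both. *Lss*, a later enzyme, rose by 3.25 on the log2 scale. Of 19 genes of cholesterol efflux and lipid storage, 10 rose and 0 fell, and 6 rose without day 0 replicate 1 or without day 0 replicate 2. *Cd36*, a fatty acid transporter, rose from 3.61, 6.37 and 1.77 RPKM to 25.8, 332 and 294 RPKM (4.92 ± 0.98, adjusted p = 0.011), *Pltp*, the phospholipid transfer protein, by 4.05 ± 0.78, adjusted p = 0.011 and *Abcg1*, a sterol exporter, by 1.65 ± 0.33, adjusted p = 0.011 on the log2 scale. *Abca1*, the other main exporter, was not called, at 16.0, 10.2 and 1.41 RPKM and then 117, 13.5 and 19.4 RPKM (2.08 ± 0.99, adjusted p = 0.14; 1.16 with adjusted p = 0.31 without day 3 replicate 1).

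Most proliferation genes fell. Of 38 cell cycle and replication genes, 30 fell, 0 rose and 8 were not called, with a median log2 fold change of -1.75, and the list summed to 2419, 2519 and 3019.9 RPKM on day 0 and 618, 1131 and 986 RPKM on day 3. *Mki67*, the gene of the proliferation antigen Ki-67, fell from 119, 116 and 179.9 RPKM to 22.4, 39.6 and 35.1 RPKM (-2.07 ± 0.28, adjusted p = 0.0039). *Top2a*, topoisomerase II alpha, fell from 168, 164 and 264 RPKM to 15.9, 62.4 and 61.1 RPKM (-2.26 ± 0.54, adjusted p = 0.020) and *Mcm2*, a replication helicase subunit, from 41.4, 44.7 and 54.1 RPKM to 8.61, 17.9 and 16.5 RPKM (-1.69 ± 0.29, adjusted p = 0.0072). *Kif11* and *Ccnb2*, mitotic genes, had the largest falls of the list, by 2.51 and 2.33 on the log2 scale (each called). The count rested on the day 0 libraries: 13 fell without day 0 replicate 2, 15 without replicate 3 and 28 without day 3 replicate 1. *Top2a* lost its call without any one of the day 0 libraries (adjusted p up to 0.065), and *Ccnb2* without day 0 replicates 2 or 3 (up to 0.061).

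Few genes of respiration and ribosomes were called. Of 29 respiratory chain genes, 0 rose and 1, *Uqcrfs1*, fell, a call lost without any library other than day 3 replicate 3 (adjusted p up to 0.12), and 2 rose without day 3 replicate 1 or after median centring. Of 31 ribosomal protein genes, 4 fell, *Rpl4*, *Rps27* and *Rpsa* among them, and 0 rose, and of 23 ribosome biogenesis genes 0 were called with all libraries by limma or by voom, 5 being at an unadjusted p under 0.05. Leaving out 1 library gave between 0 and 8 falls of ribosomal protein genes, the 8 without day 3 replicate 3, and 2 falls of biogenesis genes without day 3 replicate 1 or replicate 2, with 1 rise in the former. Medians were -0.27, -0.67 and -0.52 on the log2 scale, and -0.05, -0.37 and -0.20 without day 3 replicate 1. *Gapdh*, which has many processed copies, was listed at only 1.04, 1.20 and 1.13 RPKM on day 0, and its level is uncertain. Glycolysis genes rose in 7 of 19 cases with 0 falls, and in 4 and 3 without day 0 replicates 1 and 2. *Ldha*, lactate dehydrogenase A, rose from 81.9, 104 and 114 RPKM to 242, 284 and 259.8 RPKM (1.39 ± 0.20, adjusted p = 0.0043), and the glucose transporter *Slc2a1* by less (0.86 ± 0.24, adjusted p = 0.033), a call lost without any library other than day 3 replicate 1 (adjusted p up to 0.096). *Hk2* and *Pfkp*, the hexokinase and phosphofructokinase named with them, were not called; *Hk2* (0.68 ± 0.44, adjusted p = 0.25) passed without day 0 replicate 3 (1.18 with adjusted p = 0.030).

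Smaller lists had shares of called genes near the 34.2% of all members. Of 14 fitted arginine and polyamine genes, 2 rose and 3 fell. The 2 rises were among the 4 genes that passed the limit of 2 RPKM through day 3 only, which favours a rise. Of the 10 that passed on both days, 0 rose and 3 fell. The arginine transporter *Slc7a2* rose from 0.511, 0.183 and 0.427 RPKM to 11.2, 45.0 and 18.5 RPKM (4.02 ± 0.47, adjusted p = 0.0025). *Nos2*, the inducible nitric oxide synthase, stood at 0.110, 0 and 0.0170 RPKM and then 10.4, 0.216 and 0.0483 RPKM, high in day 3 replicate 1 only. It was not called (1.23 ± 0.89, adjusted p = 0.31) and lay below the limit of 2 RPKM without that library. *Slc7a1*, *Amd1* and *Azin1* were the 3 that fell, and 0 of them did so without day 0 replicate 1 or 2. Without day 3 replicate 1 the list had 4 rises and 1 fall among 12 fitted genes. Iron and antioxidant genes gave 6 rises and 2 falls among 21 fitted. *Fth1*, ferritin heavy chain, rose from 2264, 2014 and 1131 RPKM to 10980.3, 9108 and 10488 RPKM (2.56 ± 0.36, adjusted p = 0.0041; adjusted p = 0.33 with no filter) and *Blvrb*, biliverdin reductase B, from 15.3, 30.8 and 19.6 RPKM to 180.0, 234 and 242 RPKM (3.31 ± 0.28, adjusted p = 9.8e-04), whereas *Gsr*, glutathione reductase, fell from 211, 262 and 346 RPKM to 28.2, 63.6 and 74.4 RPKM (-2.36 ± 0.39, adjusted p = 0.0068). *Hmox1*, heme oxygenase, was not called, at 74.6, 174 and 51.0 RPKM and then 196, 192 and 149.6 RPKM (1.02 ± 0.44, adjusted p = 0.11), but passed without day 0 replicate 2 (1.51 with adjusted p = 0.023). *Nqo1*, a quinone reductase, was at 1.13, 4.97 and 1 RPKM and then 2.41, 49.6 and 41 RPKM, with day 3 replicate 1 near the day 0 levels, and passed only without that library (3.97 with adjusted p = 0.0045) among the alternatives. Of 7 NADPH oxidase genes, *Cyba* and *Hvcn1* rose and 1 other fell. The call of *Cyba* (0.72 ± 0.20, adjusted p = 0.033) was lost without any library other than day 3 replicate 1 (adjusted p up to 0.13), and with the replicate block (0.055), quantile normalization (0.15) or no filter (0.17). Among 18 pattern recognition receptors 4 rose and 3 fell (2 rose without day 0 replicate 2 or 3, 7 fell without day 3 replicate 1, and 1 without day 0 replicate 1 or day 3 replicates 2 or 3): *Tlr1* rose from 3.29, 3.79 and 4.75 RPKM to 65.7, 21.4 and 27.7 RPKM (2.83 ± 0.40, adjusted p = 0.0043) and *Clec4n*, the fungal receptor dectin-2, from 123, 86.0 and 29.1 RPKM to 782, 1402 and 1016 RPKM (3.92 ± 0.54, adjusted p = 0.0038), while *Tlr2* was lower on day 3 (-1.50 ± 0.39, adjusted p = 0.027) and lost its call without day 0 replicates 1 or 3 or day 3 replicates 2 or 3 (adjusted p up to 0.084).

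Interferon response genes varied widely among the day 3 libraries. The list of 26 summed to 602, 950.2 and 643 RPKM on day 0 and 8952, 1570.0 and 519 RPKM on day 3, and only day 3 replicates 1 and 2 were above the day 0 range. *Isg15*, a ubiquitin-like protein induced by interferon, stood at 9.80, 27.2 and 14.1 RPKM and then 736, 115 and 29.6 RPKM and was not called (3.05 ± 1.08, adjusted p = 0.068). It passed without day 3 replicate 3 (4.14 with adjusted p = 0.021) and in the fit of all 18 libraries (adjusted p = 0.018). *Ifit1*, a sensor of foreign RNA, went from 1.17, 3.37 and 2.69 RPKM to 271, 37.3 and 7.84 RPKM (3.79 ± 1.14, adjusted p = 0.042). Of the list, 5 genes rose and 0 fell with all libraries, 6 rose and 1 fell without day 3 replicate 1, 17 rose without day 3 replicate 3, 1 without day 3 replicate 2 and 0 without any one of the day 0 libraries.

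By level per gene length, the most abundant RNAs on day 3 were *Lyz2*, lysozyme, at 12766, 7417 and 18907 RPKM, *Fth1* at 10980.3, 9108 and 10488 RPKM and *Cd74* at 2139, 5073 and 6502 RPKM, followed by *B2m*, *Ctss*, *Psap*, *Actb*, *Lgals3*, *Ctsd* and *Apoe*. *Lyz2* already led on day 0, at 9249.6, 11859 and 11121 RPKM, and was not called (0.18 ± 0.44, adjusted p = 0.76). The others among the 10 on day 0 were *Actb*, *Psap*, *Igkc*, *Vim*, *Fth1*, *B2m* and the mitochondrial genes COX1, ND1 and CYTB, of which only *Igkc* (lower on day 3) and *Fth1* (higher on day 3) were called. Under quantile normalization *Actb* (-0.25 ± 0.31, adjusted p = 0.55) was called lower (-1.34 with adjusted p = 0.013), as were COX1 (-1.18, adjusted p = 0.017) and ND1 (-1.14, adjusted p = 0.040). CYTB passed in the fit of all 18 libraries (-0.76, adjusted p = 0.050).

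The change in WT cells, fitted in the same way on other libraries, shows where the change differed between genotypes. In WT, 2013 of 9938 genes rose (20.3%) and 2270 fell (22.8%), 43.1% in all. Of the 9648 genes fitted in both genotypes, 939 rose in both, which is 77.6% of the DKI rises and 51.8% of the WT rises, and 1603 fell in both, 77.3% of the DKI falls and 70.8% of the WT falls. Changes in opposite directions were called for 31 genes. Across these genes, the 2 sets of log2 fold changes correlated at 0.82 (genes are not independent replicates). The test of the difference itself, on the 12 libraries, called 123 genes with a higher change in DKI (1.2%) and 174 with a lower change (1.7%) of 10212, 2.91% in all. Of the genes tested, 290 passed the limit on expression through WT libraries only, and since a gene high in WT alone could hardly differ otherwise, their 62 lower and 0 higher calls are no support for a direction. The same holds for the 274 that passed through DKI libraries only, with 16 higher and 1 lower calls. Among the 9648 that passed in both genotypes, 107 were higher and 111 lower. Because same-numbered WT and DKI libraries of a day deviated together, the fit with replicate number within day as a block is given beside it: 470 higher (4.6%) and 570 lower (5.58%), which kept 122 of the 123 and 170 of the 174. On whole reads recovered from the RPKM values, voom called 54 higher and 36 lower. Without day 0 DKI replicate 2 the counts were 52 and 73. Among the genes with the largest differences, voom did not call those of *Ccl17*, *Ccl22*, *Tnfrsf9*, *Fcgr4*, *Il2ra*, *Lta*, *Hepacam2*, *Ccl7*, *Ccl12*, *Stab1* and *Retnla* (adjusted p between 0.099 and 0.72).

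**Figure D4:**
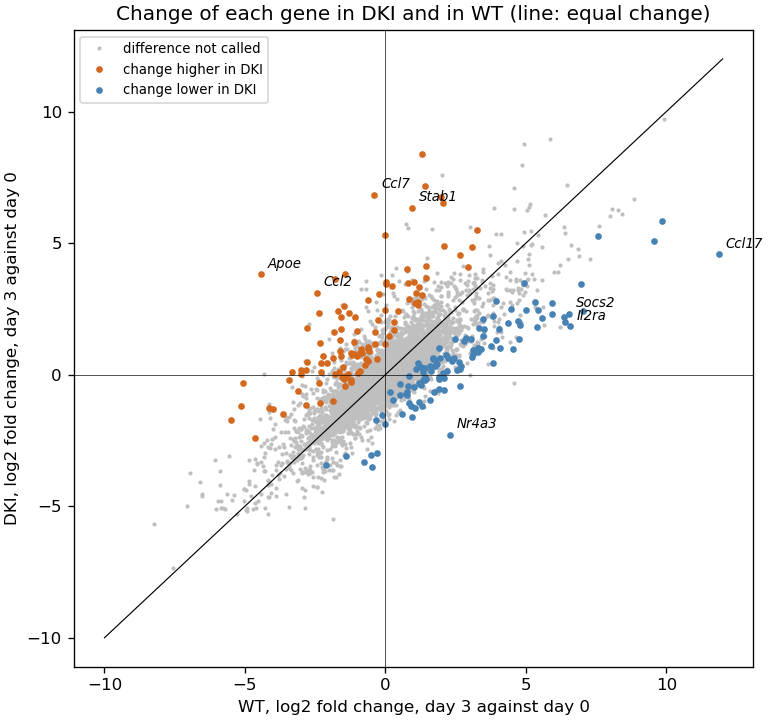
Log2 fold change from day 0 to day 3 in DKI (vertical) against WT (horizontal), 1 point per gene fitted in both, with genes whose difference was called in orange (higher in DKI) and blue (lower in DKI) and the line of equal change. *Apoe* and *Ccl2* lie above the line with opposite directions in the genotypes, and *Ccl17*, *Socs2* and *Il2ra* lie below it.

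Of the 174 genes with a lower change in DKI, 159 rose in WT, 39 rose in DKI and 23 fell in DKI. Of the 111 that passed the expression limit in both genotypes, 97 rose in WT. *Socs2* rose in both genotypes, but in WT from 0.0794, 0.131 and 0.0569 RPKM to 103, 121 and 82.0 RPKM, giving a difference of -4.23 ± 0.26, adjusted p = 4.1e-05 on the log2 scale. *Cish*, in contrast, had a difference of -2.23 ± 0.66, adjusted p = 0.11, which did not pass, although it did with the block (adjusted p = 0.0064); its WT values were 1.63, 3.66 and 0.497 RPKM and then 200.1, 177 and 175 RPKM. *Ccl17* had the largest difference in this direction (-7.29 ± 0.81, adjusted p = 0.0014), the WT libraries reaching 3473, 5758 and 5499.9 RPKM on day 3. *Itgae*, the integrin CD103, and *Lta*, lymphotoxin alpha, which like *Hepacam2* entered the test through their WT day 3 level alone, stayed below 1 RPKM in all DKI libraries and reached 47.1, 39.9 and 35.0 RPKM and 27.0, 39.7 and 20.6 RPKM in WT on day 3, with differences of -5.02 and -4.59. *Hepacam2* stayed at or below 1.69 RPKM in DKI and reached 100.3, 55.3 and 57.1 RPKM in WT (-5.05 ± 0.36, adjusted p = 7.3e-05). *Il2ra* differed by -4.72 ± 0.61, adjusted p = 0.0027, with 173, 75.0 and 82.4 RPKM in WT on day 3. *Nr4a3* moved in opposite directions, falling in DKI and going from 15.6, 17.8 and 18.2 RPKM to 80.8, 132 and 66.7 RPKM in WT (-4.61 ± 0.53, adjusted p = 0.0015). *Jak2* and *Stat5a* rose in WT, to 289, 321 and 294 RPKM and 30.2, 58.0 and 39.7 RPKM, and not in DKI, with differences of -2.11 ± 0.33, adjusted p = 0.0077 and -1.60 ± 0.34, adjusted p = 0.033. The difference of *Stat5a* did not pass without day 3 DKI replicate 1 (adjusted p = 0.053). Of 32 dendritic cell genes tested, 12 had a lower change in DKI and 0 a higher one (19 and 1 with the block). Of the 32, 5 passed the expression limit through WT libraries only, and 4 of the 12 were among them. Of the 22 STAT5 targets 4 had a lower one and 0 a higher one (8 and 1 with the block).

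Of the 123 genes with a higher change in DKI, 76 rose in DKI, 66 fell in WT and 16 rose in WT. *Apoe* went from 122, 232 and 138 RPKM to 30.5, 3.23 and 1.94 RPKM in WT, against the rise in DKI, a difference of 8.25 ± 1.40, adjusted p = 0.012; without day 3 DKI replicate 1 it was 7.15 with adjusted p = 0.012. *Ccl2* likewise went from 94.6, 80.9 and 329 RPKM to 27.9, 45.3 and 11.1 RPKM in WT (5.53 ± 1.01, adjusted p = 0.017), and its difference did not pass without day 0 DKI replicate 2 (adjusted p = 0.053). *Ccl7* and *Ccl12* had differences of 7.22 ± 1.30, adjusted p = 0.016 and 5.76 ± 1.03, adjusted p = 0.016, and that of *Ccl12* did not pass in the fit of all 18 libraries (adjusted p = 0.051). *Stab1* reached 6.94, 0.917 and 0.381 RPKM in WT on day 3, far below every DKI library (5.37 ± 0.79, adjusted p = 0.0060). *Retnla*, a secreted protein of alternatively activated macrophages, had 2 reads over the DKI day 0 libraries and 222, 13.8 and 272 RPKM on day 3, a ratio of 5389 between depth-scaled reads with a 95% counting interval of 1492 to 44506, and a difference from WT of 6.02 ± 1.22, adjusted p = 0.027, which was lost when any one of 8 of the 12 libraries was left out (adjusted p up to 0.068), in the fit of all 18 libraries (0.29) and with no filter (0.057). Among 38 macrophage genes tested, 10 had a higher change in DKI and 0 a lower one (24 and 1 with the block). Of the 38, 4 passed the expression limit through DKI libraries only, 1 of them among the 10, and 1 passed through WT libraries only. The 33 that passed in both held 9 higher and 0 lower changes (21 and 1 with the block). By limma without the block and by voom, 0 differences were called among 38 cell cycle, 29 classical monocyte and 26 interferon response genes, of which 1, 5 and 11 were at an unadjusted p under 0.05. With the block, 2 of the monocyte genes and 1 of the interferon response genes had a higher change in DKI, and 1 of the cell cycle genes a lower one.

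**Figure D5:**
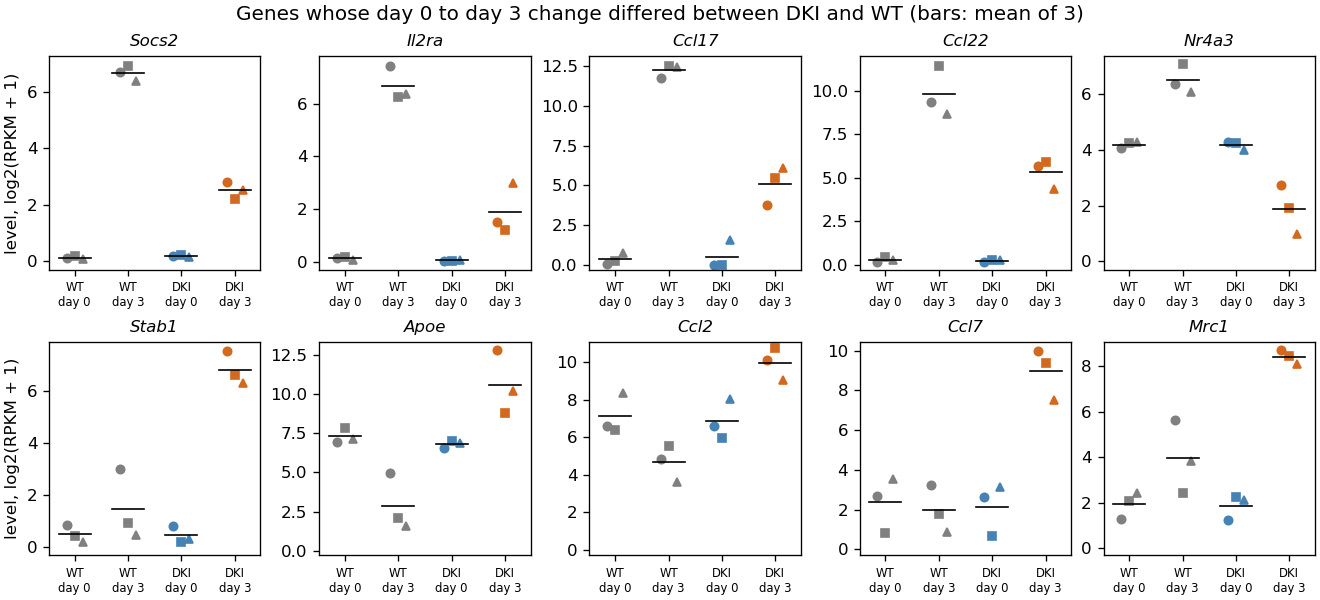
Level of 10 genes whose change differed between genotypes, as log2(RPKM + 1) in each library of WT (grey) and DKI (blue on day 0, orange on day 3), with 1 symbol per replicate and a bar at the mean of 3. In the upper row WT reaches the higher level on day 3, and in the lower row DKI does.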

How the data were processed

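RNA was measured by single-end mRNA sequencing of monocytes from WT and DKI mice. The authors aligned reads to mm10 with Subread, counted RefSeq genes with featureCounts and deposited RPKM values per gene and library. Tool versions, strandedness and how multi-mapping reads were treated were not given in the sources used here, so levels of genes with near copies are uncertain. Libraries were grouped by their labels, and the study describes 3 independent experiments. Whether same-numbered libraries shared animals is not stated.

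From the deposited RPKM values, log2(RPKM + 1) was tested in limma 3.58.1 (R 4.3.3) with an intensity trend. Tests are two-sided, p-values were Benjamini-Hochberg adjusted over all fitted genes, and a call needed an adjusted p under 0.05 and a fold above 1.5. Each fold change is on the log2(RPKM + 1) scale, which understates the change of low genes. Each library's depth was estimated from the RPKM steps of low genes, its absolute scale resting on 112 genes with 1 annotated transcript. At that depth, values were whole reads, within a tolerance of 0.02, for 99.99% of the 15814 genes with 3 or more values above 0. Some genes, mostly on the X chromosome, are not analysed here, and a few others, among them genes of the naming rule given next, stayed in the fits and counts and are not reported here.

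Named genes were the 10 largest called rises and falls whose 3 same-numbered pairs agreed in sign, the 8 largest called differences in each direction, the 10 most abundant genes of each day, and of each of 21 lists the first 4 measured genes and the 2 largest called rises and falls. *Stat5a* and *Stat5b* were added. A few genes outside this rule (*Pf4*, *Gapdh*, *Azin1*, *Rps27*, *Timp2*, *Adam8*, *Marco*, *Siglecf*, *Blnk*, *Gata2* and *Cd4*) were chosen after their values were seen. Members and lists were chosen with earlier results of these data known.

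Within a day, WT and DKI libraries with the same number deviated in common (correlation of deviations from the group means 0.69 to 0.87 on day 0 and 0.16 to 0.37 on day 3), so number within day was used as a block beside the main test of the difference. This pairing comes from the data, not from the labels. Alternatives were other pseudocounts and expression limits, median centring, quantile normalization, all 18 libraries in a single fit, a replicate block and leaving out each library. voom on the recovered reads was chosen after seeing the data.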

Additional observations from a re-analysis of the deposited data

Results flagged for a closer look

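The change from day 0 to day 3 was compared between DKI and WT monocytes by the limma contrast of the 2 changes. Of 10212 genes tested, 123 had a higher (1.2%) and 174 a lower change (1.7%) in DKI. Of these, 16 of the 123 passed the expression limit through DKI libraries only and 62 of the 174 through WT libraries only. Those calls are no support for a direction. Among the named genes with a higher change in DKI, differences on the log2 scale were 8.25 for *Apoe*, 7.22 for *Ccl7*, 6.02 for *Retnla*, 5.76 for *Ccl12*, 5.53 for *Ccl2*, 5.44 for *Fcgr4* and 5.37 for *Stab1*. The other named genes of that direction were the macrophage receptors *Mrc1* at 4.51 and *Mertk* at 2.79, the cathepsins *Ctsl* at 3.53, *Ctsd* at 2.50 and *Ctsb* at 2.46, the receptor *Tlr1* at 3.44 and lysozyme *Lyz2* at 3.00. *Lyz2* was not called in DKI cells alone.

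Among those with a lower change in DKI, differences were -7.29 for *Ccl17*, -5.05 for *Hepacam2*, -5.02 for *Itgae*, -4.72 for *Il2ra*, -4.63 for *Tnfrsf9*, -4.61 for *Nr4a3*, -4.59 for *Lta* and -4.45 for *Ccl22*. *Ccr7* at -4.40 and *Socs2* at -4.23 followed, then *Cd83* at -3.03, *Pfkp* at -2.23, *Jak2* at -2.11, *Bcl6* at -1.66 and *Stat5a* at -1.60. *Hepacam2*, *Itgae* and *Lta* entered the test through their WT day 3 level alone, so their direction is no support. The difference of *Fcgr4* was lost when any one of 10 of the 12 libraries was left out (adjusted p up to 0.11), and those of *Ccl22* and *Tnfrsf9* without day 0 DKI replicate 2 (adjusted p = 0.059 and 0.057) or day 0 WT replicate 2 (0.051 and 0.052), and for *Ccl22* also without day 0 DKI replicate 3 (0.051). By voom, the differences of *Fcgr4*, *Ccl22* and *Tnfrsf9* were not called (adjusted p = 0.31, 0.52 and 0.56). Without day 3 DKI replicate 1, the differences of *Mrc1* and *Stat5a* did not pass.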

How the results depend on the processing

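Leaving out 1 library gave 1976 (without day 0 replicate 2) to 3412 calls between days in DKI, 3363 to 4286 in WT, and 125 (without day 0 DKI replicate 2) to 336 for the difference between genotypes. The difference count also dropped to 177, 171, 152 and 189 without day 0 DKI replicate 1 or 3 or day 0 WT replicate 2 or 3. With the replicate block it was 1040, and with voom 90, against 297. The day counts in DKI and WT stayed within 1.5 times of 3394 and 4283 under every other alternative, with 2963 to 4036 and 3689 to 4431. DKI libraries of day 0 and day 3 shared only a number: same-numbered deviations correlated at -0.012, -0.014 and 0.18, not every library correlated best with its own number, and the replicate block gave 3179 calls in DKI and 3788 in WT. Of 102 called named genes in DKI, 66 were called under all 14 alternatives and 36 lost the call under at least 1, including 24 without day 0 replicate 2 and 5 without day 3 replicate 1. Genes whose log2 fold change turned sign were not called in any of these fits. When single libraries were left out, *Csf2ra* lay between -0.552 (without day 3 replicate 2) and 0.0365 (without day 3 replicate 1), *Lyz2* between -0.135 and 0.540 (without day 3 replicates 3 and 2), *Stat5a* between -0.260 and 0.0259 (without day 3 replicates 3 and 1), *Pfkp* between -0.339 and 0.244 (without day 3 replicates 2 and 1) and *Cd209a* between -0.9997 and 0.154 (without day 3 replicates 3 and 1). After median centring *Stat5a* was at 0.0205, *Pfkp* at 0.0378 and *Ndufa9* at 0.00275, and after quantile normalization they were at 0.0187, 0.0579 and 0.00448, with *Lyz2* at -0.33 and *Psap* at -0.51. Of the called named genes in DKI, voom did not call 14, with adjusted p from 0.051 (*Il2ra*) to 0.47 (*Ccl8*), *Ly6c2*, *Fcgr4*, *Ifit1*, *Tlr3*, *Tlr4*, *Tnfrsf9* and *Retnla* among them. The causes were not tested. Depth sets no limit for most members, but genes with a few reads on day 0, such as *Ccl8* and *Retnla*, have a fold only as a lower bound or with a wide counting interval.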
